A study of Homo sapiens with 6 samples.

Results

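The genes described here encode mesenchymal regulators and the non-collagen part of the extracellular matrix, and were measured in the medulloblastoma cell line D283. They were chosen by symbol, with earlier results of these data known. The count table held rows for all 44 listed symbols among its 50883 gene symbols. Both groups carried a lentivirus that expressed GFP, and cells were collected after 7 days. In 3 OTX2 knockout cultures the virus encoded a guide RNA against OTX2, a homeobox transcription factor, and in 3 control cultures it encoded a non-targeting guide. Because the replicates of each group were infected separately but share 1 cell line, p-values reflect the variation among infections and not among tumours. Neither the guide number nor the edited share of cells is stated in the labels.

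Mesenchymal cells build an interstitial matrix in which fibronectin, tenascins and thrombospondins organise adhesion, and in which elastin is laid down on microfibrils of fibrillin and then crosslinked by lysyl oxidases. Transcription factors of the SNAI, TWIST and ZEB families repress epithelial junction genes and accompany epithelial-to-mesenchymal transition, and several of them act in neural crest and early neural tissue. The brain parenchyma is poor in elastin and fibrillar matrix, which in the nervous system are found mainly in meninges and vessel walls.

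Library totals were 60561438 to 62166870 counts in OTX2 knockout and 54540645 to 61662466 in control, and 3 counts corresponded to 0.0471 to 0.0563 CPM, the unit used throughout, in which counts are scaled to a common TMM-adjusted library size. OTX2 RNA averaged 825 ± 61.1 CPM in OTX2 knockout and 964 ± 48.4 CPM in control (SD, n = 3 each), a log2 fold change of -0.22 with an adjusted p of 0.00646. An edit need not remove the transcript, and the loss of OTX2 protein was not tested here. Control replicate 1 had 0.764% of counts on mitochondrially encoded genes, against 0.440% to 0.601% in the other 5 libraries. Of all tested genes, 21.2% rose and 18.5% fell, the background for each marker count here. Of the 10 medulloblastoma markers, 8 were tested, of which 6 fell and NEUROD1 rose, and MYC averaged 1204 and 1725 CPM in OTX2 knockout and control, whereas LMX1A had 3 and 0 counts and KCNA1 had 7 and 1. Among 11 fibroblast or meningeal markers that are not members, 5 rose of 8 tested, with a summed level of 127 to 132 CPM in OTX2 knockout and 105 to 108 CPM in control. Most of that sum was PDPN (93.3 and 79.8 CPM on average), while DPT was at 0 everywhere, PI16 had 2 and 0 counts and the fibrillar collagen gene COL3A1 had 7 and 3. Summed markers of pericytes or smooth muscle lay at 97.5 to 99.9 CPM in OTX2 knockout and 109.8 to 117 CPM in control, those of endothelium at 5.56 to 6.59 and 2.55 to 4.03 CPM, and those of immune cells at 1.005 to 1.07 and 1.07 to 1.17 CPM, with ERG and CD3E at 0. VWF (5.12 and 2.78 CPM on average) led the endothelial sum. Epithelial markers summed to 122 to 133 CPM in OTX2 knockout and 22.9 to 27.6 CPM in control. Most of that sum was KRT15 (70.2 and 0.274 CPM on average) and KRT8 (52.2 and 24.7 CPM), while EPCAM averaged 0.240 and 0.241 CPM. KRT14 (6 and 0 counts), KRT18 (31 and 19), CDH1 (10 and 1) and TP63 (1 and 0) were not tested. Summed astroglial markers lay at 312 to 359 and 221 to 258 CPM, neuronal markers at 175 to 193 and 169 to 191 CPM, and neural crest markers at 11.4 to 14.3 and 7.06 to 8.67 CPM. Most of the astroglial sum was GJA1 (279 and 154 CPM on average), while SLC1A3 averaged 49.7 and 82.4 CPM. GFAP, with 6 and 1 counts, AQP4 and ALDH1L1 were not tested. SYT1 (148 and 170 CPM) led the neuronal sum and ERBB3 (12.3 and 7.71 CPM) the neural crest sum. NOTCH3 (54.9 and 58.0 CPM) and KCNJ8 (30.8 and 35.2 CPM) led the pericyte or smooth muscle sum. By the test used below, 3 rose and 2 fell of 7 tested pericyte or smooth muscle markers, 2 of 3 endothelial markers rose, and 1 rose and 1 fell of 4 immune markers. Of 4 epithelial markers 3 rose, of 3 astroglial markers 1 rose and 1 fell, of 6 neuronal markers 5 rose and 1 fell, and of 2 neural crest markers 1 rose. Of these rises, PRRX1 (fibroblast or meningeal), PECAM1 (endothelial), CD14 (immune), KRT5 (epithelial), RBFOX3 and ELAVL4 (neuronal) had no control library over the filter level. These genes were tested only through OTX2 knockout and had to differ. The part of these cell type markers in the results was not tested, and in bulk RNA more cells of a kind and more RNA per cell cannot be told apart.

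The promoters of 5 members are shown because these genes carry some of the contrasts described below: TNC, POSTN and SPARC among the matricellular genes that rose, FBN1 for the microfibrils, and CTGF, a common reporter of YAP and TEAD activity, which was not called. Each line holds the 250 bases before the RefSeq start on GRCh38 patch 14, written 5′ to 3′ on the gene's strand, and capitals mark GGAATG on either strand, the core word bound by TEAD factors.
TNC, chr9:115118158-115118407, minus strand: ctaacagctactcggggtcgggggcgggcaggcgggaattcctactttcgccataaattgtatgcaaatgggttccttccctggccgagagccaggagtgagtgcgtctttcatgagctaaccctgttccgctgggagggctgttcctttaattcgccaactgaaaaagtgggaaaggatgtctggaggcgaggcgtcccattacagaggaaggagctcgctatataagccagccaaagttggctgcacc
POSTN, chr13:37598769-37599018, minus strand: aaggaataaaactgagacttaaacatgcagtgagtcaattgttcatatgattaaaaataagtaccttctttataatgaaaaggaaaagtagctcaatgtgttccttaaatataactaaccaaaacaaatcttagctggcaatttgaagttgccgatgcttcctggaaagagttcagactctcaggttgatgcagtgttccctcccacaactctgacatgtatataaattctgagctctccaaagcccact
SPARC, chr5:151686916-151687165, minus strand: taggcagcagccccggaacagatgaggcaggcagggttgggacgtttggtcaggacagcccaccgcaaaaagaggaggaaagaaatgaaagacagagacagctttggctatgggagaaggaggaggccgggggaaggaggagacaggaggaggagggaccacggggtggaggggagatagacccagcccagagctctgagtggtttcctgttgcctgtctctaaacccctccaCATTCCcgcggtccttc
FBN1, chr15:48644971-48645220, minus strand: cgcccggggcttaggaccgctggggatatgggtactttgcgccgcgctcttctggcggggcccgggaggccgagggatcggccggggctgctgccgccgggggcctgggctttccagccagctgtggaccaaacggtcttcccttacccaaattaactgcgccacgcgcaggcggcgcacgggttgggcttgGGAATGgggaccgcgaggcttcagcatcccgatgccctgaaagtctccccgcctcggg
CTGF, chr6:131951373-131951622, minus strand: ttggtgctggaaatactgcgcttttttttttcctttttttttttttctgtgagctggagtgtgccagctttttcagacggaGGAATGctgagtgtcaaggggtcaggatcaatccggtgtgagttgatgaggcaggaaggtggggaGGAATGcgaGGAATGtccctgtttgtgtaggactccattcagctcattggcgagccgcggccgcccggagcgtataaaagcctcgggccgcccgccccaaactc
In windows running to 50 bases after the start, GGAATG or its reverse complement lay in 15% of 40 windows from 27 member genes (6 genes), against 14.03% of 35116 windows of all genes. CTGF held it at 3 places, 169, 104 and 95 bases before the start, FBN1 at 58 bases and SPARC at 17 bases. The E-box CAGGTG, a word bound by SNAI and ZEB proteins, lay in 15% of member windows and 20.59% of all windows. The homeobox core GGATTA, the kind of word bound by OTX2, lay in 0 member windows and in 6.362% of all windows. Both strands were searched, the words do not overlap in the printed sequences, and a word is a description of letters, not a binding site.

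Of the 44 members, 42 had at least 1 count and 36 passed the filter on low counts. Since the members were chosen with earlier results of these data known, their shares beside those of all genes are description only. In OTX2 knockout, 21 of the 36 tested members rose and 3 fell (quasi-likelihood F test in edgeR, with a threshold of 0.05 on the p adjusted by Benjamini-Hochberg), where 39.7% of all 18420 tested genes were called, 21.2% up and 18.5% down. The 21 rising members include FAP, DCN and POSTN, which were under the filter level in the control libraries and passed through OTX2 knockout, so that they had to differ; without them 18 of 33 rose and 3 fell, and the median was 0.26 on the log2 scale. Rises of at least 2-fold comprised 10 members, these 3 among them, against 6.04% of all tested genes, and the falls were all under 2-fold. The median log2 fold change was 0.32 over the tested members and 0.0062 over all tested genes. CPM values did not overlap between the groups for 24 members, 23 with OTX2 knockout above and 1 below, against 26.2% and 23% of all tested genes. The 23 include FAP, DCN and POSTN, and without these genes 20 of 33 lay above and 1 below. With library totals in place of TMM, 24 members rose and 1 fell, and rises made up 71.9% of all called genes, against 53.4% with TMM; the median of all genes then shifted by 0.079 on the log2 scale.

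**Figure D1:**
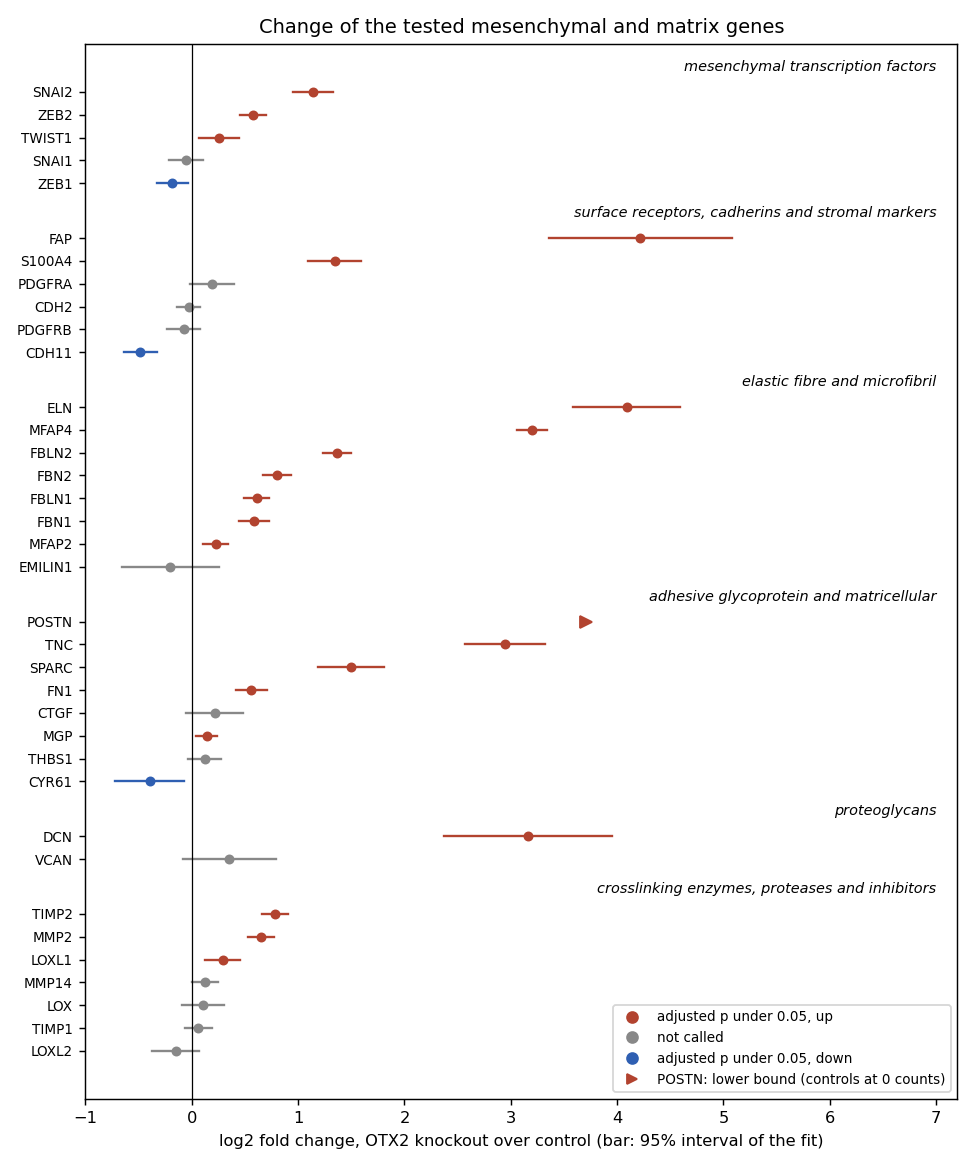
Log2 fold change of OTX2 knockout over control for the 36 tested members, grouped by role, with the 95% interval of the fit as a bar; the triangle for POSTN is a lower bound because its controls had 0 counts. FAP, ELN, MFAP4, DCN and TNC have the highest fitted values other than POSTN, and CDH11 at -0.48 is the lowest point.

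Elastic fibre and microfibril genes rose broadly. Of 8 tested, 7 rose, and the other, EMILIN1, did not pass. The background for each count by role, here and below, is 21.2% up and 18.5% down of all tested genes. ELN, which encodes elastin itself (chromosome 7, 74027789 to 74069907, plus strand, protein-coding in GENCODE release 29 on GRCh38), had 3.08, 2.96 and 4.11 CPM in OTX2 knockout, against 0.253, 0.220 and 0.113 CPM in control. The OTX2 knockout libraries held 639 counts in all and the control libraries 33, with no overlap, and 2 of the 3 control libraries were over the filter level. ELN was 17.3-fold higher, with a log2 fold change of 4.09, an SE of 0.24 and an adjusted p of 3.62e-09. MFAP4, a microfibril-associated glycoprotein that binds elastin and fibrillin, had 73.7, 78.9 and 71.0 CPM in OTX2 knockout, against 7.40, 8.54 and 8.42 CPM in control. Its 9.18-fold rise (log2 fold change 3.20, SE 0.07, adjusted p = 3.1e-14) had the smallest adjusted p of the members. MFAP4 lies at chromosome 17, 19383442 to 19387240, on the minus strand, and its exons overlap those of MAPK7. MAPK7 ends at 19383544, so the 2 genes can share only the bases from 19383442 to 19383544. Whether counting used strand is unknown, and reads within that stretch cannot be separated. MAPK7 itself averaged 26.2 ± 1.44 CPM in OTX2 knockout and 21.6 ± 0.865 CPM in control (SD, n = 3 each), 1.21-fold higher.

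FBLN2, a fibulin that bridges fibrillin, fibronectin and proteoglycans, had 60.7, 63.2 and 65.5 CPM in OTX2 knockout, against 22.0, 26.0 and 25.5 CPM in control. All 3 OTX2 knockout libraries were more than 2-fold above each control (2.58-fold on average, log2 fold change 1.36, SE 0.06, adjusted p = 2.79e-10). The fibrillins, which form the microfibril backbone, rose less: FBN2, most used in development, rose 1.74-fold, and FBN1 averaged 17.6 ± 1.08 CPM in OTX2 knockout and 11.7 ± 0.346 CPM in control (SD, n = 3 each, log2 fold change 0.59, adjusted p = 3.96e-06). FBLN1 rose 1.53-fold to 57.1 ± 3.32 CPM, against 37.4 ± 1.66 CPM in control (SD, n = 3 each). MFAP2, a small protein that decorates fibrillin, rose 1.17-fold. EMILIN1, found at the interface of elastin and microfibril, averaged 0.795 and 0.915 CPM in OTX2 knockout and control, and its log2 fold change of -0.20 had an interval from -0.66 to 0.26. FBLN5, which helps assemble elastic fibres, had 8 and 1 counts, and MFAP5, a relative of MFAP2, had 15 and 6 counts, in OTX2 knockout and control, and neither was tested.

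**Figure D2:**
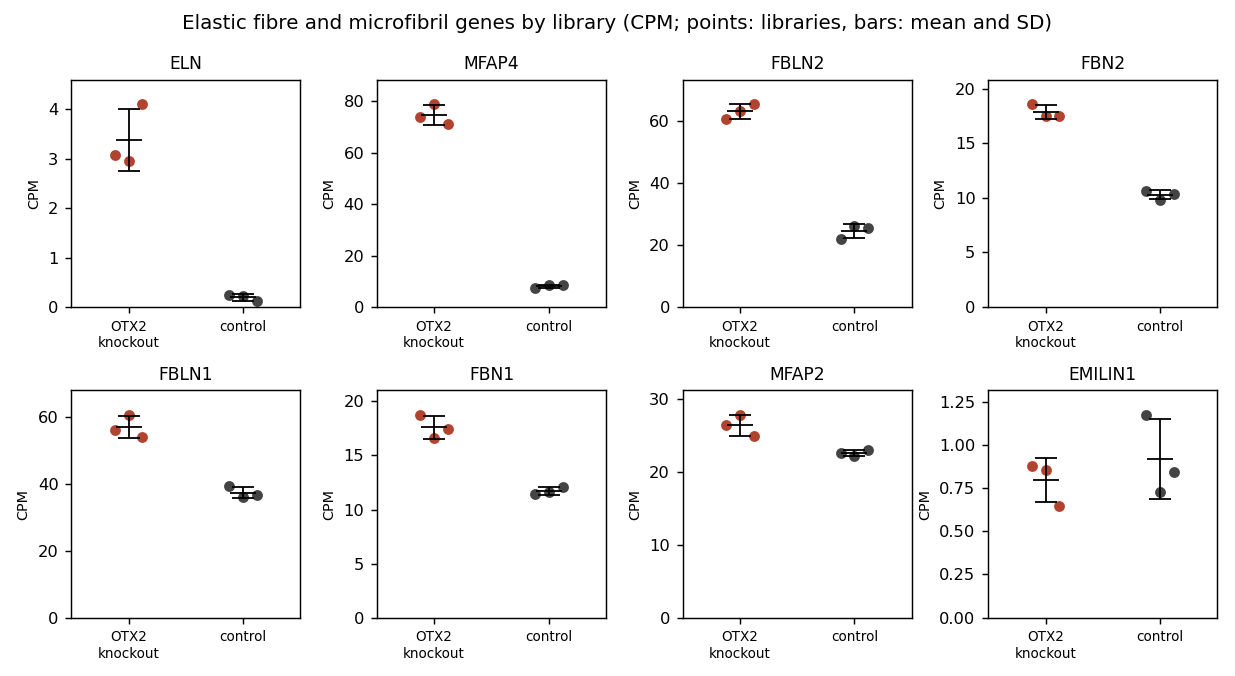
CPM of the 8 tested elastic fibre and microfibril genes in each library (points), with the group mean and SD, OTX2 knockout on the left and control on the right. The groups are apart for 7 genes, from ELN at 17.3-fold to MFAP2 at 1.17-fold, and overlap for EMILIN1.

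LOX, LOXL1 and LOXL2, the members that crosslink these fibres, differed less than most of the genes above. LOXL4, outside the module, was higher in OTX2 knockout and is given with the related lists below. LOX, the lysyl oxidase of elastin and collagen, averaged 15.9 ± 0.989 CPM in OTX2 knockout and 14.8 ± 2.45 CPM in control (SD, n = 3 each) and was not called, with an interval of the log2 fold change from -0.10 to 0.30. Without control replicate 1, LOX was called up with a log2 fold change of 0.24. LOXL1, which acts on elastin, rose 1.22-fold, and its exons overlap the antisense gene LOXL1-AS1, at 1.38 and 1.60 CPM in OTX2 knockout and control. LOXL2 averaged 7.69 and 8.53 CPM and was called only without control replicate 3, at -0.27. Among the matrix proteases, MMP2, a gelatinase, rose 1.57-fold to 21.8 ± 0.643 CPM, against 13.9 ± 0.295 CPM in control (SD, n = 3 each). MMP14, the membrane protease that activates the MMP2 proenzyme, had 40.8, 37.2 and 36.7 CPM in OTX2 knockout, against 33.4, 35.1 and 36.9 CPM in control. The groups overlapped and MMP14 was not called (log2 fold change 0.12, adjusted p = 0.104), except with library totals (adjusted p = 0.0166). TIMP2, an inhibitor that also takes part in that activation, had 38.9, 39.3 and 38.0 CPM in OTX2 knockout, against 24.3, 22.3 and 21.0 CPM in control. It rose 1.72-fold in non-overlapping groups (log2 fold change 0.78, SE 0.06, adjusted p = 4.85e-08), whereas TIMP1 averaged 18.8 and 18.0 CPM and was not called. Thus 3 of these 7 genes rose and the other 4 did not pass.

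Of 8 tested matricellular and adhesive glycoproteins, 5 rose and 1 fell, with TNC, SPARC and POSTN changed most. POSTN was tested only through OTX2 knockout and had to differ. TNC, the tenascin of developing and remodelling tissue (chromosome 9, 115019578 to 115118257, minus strand), had 3.42, 2.85 and 2.73 CPM in OTX2 knockout, against 0.433, 0.322 and 0.413 CPM in control, 7.71-fold higher (adjusted p = 5.68e-09). SPARC, a collagen-binding glycoprotein, had 2.67, 2.33 and 2.50 CPM in OTX2 knockout, against 0.993, 0.864 and 0.788 CPM in control. It rose 2.83-fold (adjusted p = 9.31e-07), and neither gene's groups overlapped. POSTN, periostin, had 12, 15 and 17 counts in OTX2 knockout (0.188, 0.243 and 0.268 CPM) and 0 counts in each control, so that its level was at least 13.0-fold higher, taking 3 counts over the whole control group as the floor. FN1, fibronectin, rose 1.47-fold to 31.2 ± 3.01 CPM, against 21.2 ± 1.19 CPM in control (SD, n = 3 each).

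The most abundant member was MGP, matrix Gla protein, an inhibitor of calcification. It had 191, 200.4 and 198 CPM in OTX2 knockout, against 170.2, 182 and 182 CPM in control, a 1.10-fold difference whose call (adjusted p = 0.0252) was lost without OTX2 knockout replicate 2 or 3, or control replicate 1 or 2. THBS1, thrombospondin 1, had 144, 154 and 174 CPM in OTX2 knockout, against 159.9, 142 and 133 CPM in control. Its groups overlapped and it was not called, except without control replicate 1 (log2 fold change 0.19) and with library totals (0.20). CTGF and CYR61, secreted CCN proteins and common targets of YAP and TEAD, were not called up. CTGF averaged 3.75 ± 0.331 and 3.23 ± 0.551 CPM in OTX2 knockout and control (SD, n = 3 each) and was called up only without control replicate 1 (log2 fold change 0.36). CYR61 averaged 3.59 ± 0.336 and 4.73 ± 1.24 CPM in overlapping groups, and its call downwards (log2 fold change -0.40, adjusted p = 0.0478) was lost without OTX2 knockout replicate 1, 2 or 3, or control replicate 1 or 2, and with upper-quartile factors, library totals, both stricter filters and limma-voom. TGFBI, a TGF-beta-induced adhesion protein, had 14 and 5 counts and was not tested, and THBS2 had 0 counts in all 6 libraries. The neuronal tubulin gene TUBB3 was also at 0 in all 6 libraries, and the annotation behind the counts is unknown.

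The transcription factors of mesenchymal transition did not move together: of 5 tested, 3 rose and 1 fell. SNAI2, a zinc-finger repressor of neural crest and mesenchyme, had 9.70, 10.7 and 10.1 CPM in OTX2 knockout, against 4.87, 4.95 and 4.03 CPM in control. Its 2.20-fold rise (log2 fold change 1.14, SE 0.09, adjusted p = 9.42e-08) was without overlap, while its relative SNAI1 averaged 10.4 and 10.8 CPM in OTX2 knockout and control and was not called. ZEB2, a zinc-finger homeobox factor of neural crest and neurons, had 34.3, 33.9 and 33.7 CPM in OTX2 knockout, against 24.4, 22.5 and 21.4 CPM in control, 1.49-fold higher without overlap (adjusted p = 9.55e-07). ZEB1, a related repressor that is also active in neural progenitors, had 113, 121 and 136 CPM in OTX2 knockout, against 149.6, 141 and 129 CPM in control. The ZEB1 groups overlapped, and its call downwards (log2 fold change -0.18, adjusted p = 0.0414) was lost without OTX2 knockout replicate 1 or 2, without control replicate 1 or 2, and with upper-quartile factors, library totals and both stricter filters. TWIST1, a helix-loop-helix factor of cranial mesenchyme, rose 1.20-fold, a call lost without OTX2 knockout replicate 2 or 3, without any 1 of the 3 controls, and with DESeq2. TWIST2 had 0 counts in all 6 libraries.

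Among receptors, cadherins and stromal markers, 2 of 6 tested rose and 1 fell (33.3% and 16.7%, against 21.2% and 18.5% of all tested genes). Of these rises, FAP was tested only through OTX2 knockout and had to differ. S100A4, a calcium-binding protein used as a mesenchymal marker, had 4.29, 4.93 and 4.19 CPM in OTX2 knockout, against 1.61, 1.90 and 1.76 CPM in control, 2.54-fold higher without overlap (adjusted p = 3.05e-07). FAP, a surface protease of activated fibroblasts, had 64, 41 and 49 counts in OTX2 knockout (1.005, 0.663 and 0.774 CPM) and 1, 2 and 4 counts in control (0.0181, 0.0339 and 0.0750 CPM). The ratio of 19.2 had a counting interval from 9.26 to 49.4, and the groups did not overlap. THY1, another fibroblast surface marker, had 2 and 0 counts and was not tested.

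CDH11, a mesenchymal cadherin, had 39.6, 45.9 and 47.9 CPM in OTX2 knockout, against 66.0, 64.6 and 56.1 CPM in control. It was the one member below control without overlap, at a log2 fold change of -0.48 with an SE of 0.07 and an adjusted p of 7.93e-05. CDH2, the N-cadherin of neural and mesenchymal cells, had 54.1, 59.2 and 54.9 CPM in OTX2 knockout, against 59.8, 55.6 and 56.0 CPM in control. These overlapping groups gave a log2 fold change of -0.03 with an interval from -0.14 to 0.08. The PDGF receptors PDGFRA and PDGFRB were not called, with log2 fold changes of 0.19 (interval -0.02 to 0.40) and -0.08 (interval -0.23 to 0.08); PDGFRA was called up with library totals.

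**Figure D3:**
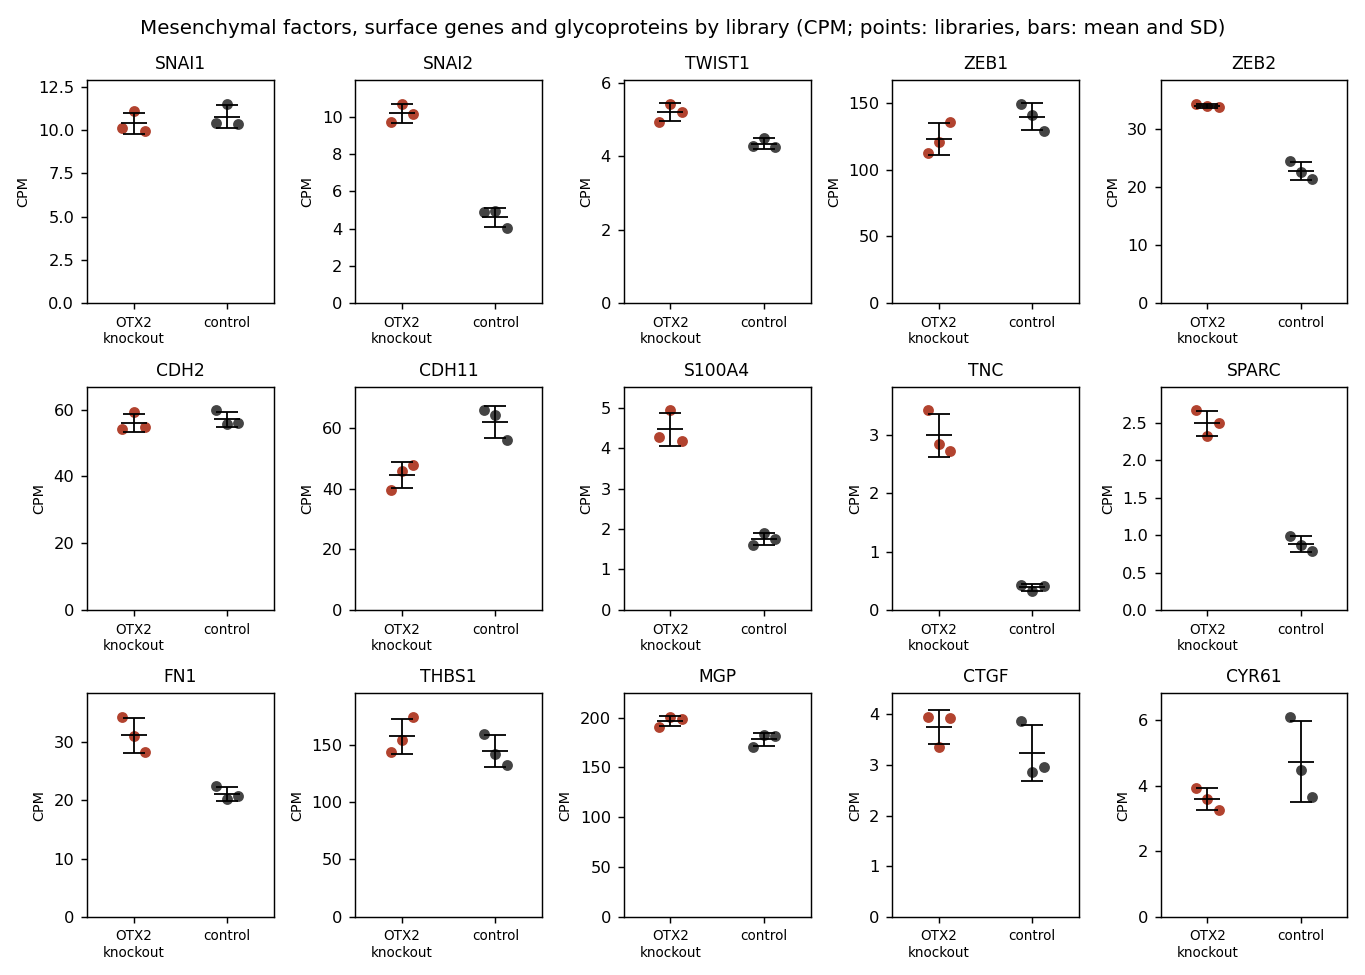
CPM in each library (points) with the group mean and SD for 15 members, OTX2 knockout on the left and control on the right of each panel; each axis starts at 0. SNAI2, ZEB2, S100A4, TNC, SPARC and FN1 lie above control and CDH11 below, while SNAI1, ZEB1, CDH2, THBS1, CTGF and CYR61 overlap.

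Proteoglycans of the small leucine-rich family were near the detection limit. DCN, decorin, had 32, 34 and 28 counts in OTX2 knockout (0.502, 0.550 and 0.442 CPM) and 2, 3 and 4 counts in control (0.0361, 0.0508 and 0.0750 CPM). The ratio of 9.23 had a counting interval from 4.68 to 20.9, and DCN was tested only through OTX2 knockout and had to differ. LUM, lumican, had 34 and 4 counts in OTX2 knockout and control, a ratio of 7.42 with a counting interval from 2.69 to 29.3, and BGN, biglycan, had 22 and 4 counts. LUM and BGN were not tested. VCAN, the large hyaluronan-binding versican, had 0.707, 0.631 and 0.790 CPM in OTX2 knockout, against 0.506, 0.576 and 0.581 CPM in control. VCAN groups did not overlap, and it was not called (log2 fold change 0.35, interval -0.08 to 0.79).

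Levels were compared between members per kilobase of merged GENCODE exons, a length the authors did not necessarily use. MGP led in both groups, at 133 CPM per kb in OTX2 knockout and 120.3 CPM per kb in control. MFAP4 stood second in OTX2 knockout at 35.9 CPM per kb, and stood at rank 14 in control at 3.91 CPM per kb. MFAP2, THBS1 and ZEB1 lay at 21.0, 20.3 and 19.1 CPM per kb in OTX2 knockout and at 17.9, 18.6 and 21.7 CPM per kb in control. Elastin, by contrast, reached 0.845 CPM per kb in OTX2 knockout and 0.0488 CPM per kb in control, below both fibrillin genes in either group (FBN1 1.15 and 0.763, FBN2 1.49 and 0.854 CPM per kb). All members together summed to 1118 ± 30.0 CPM in OTX2 knockout and 912 ± 32.7 CPM in control (SD, n = 3 each), 1.23-fold higher. Without MGP, THBS1 and ZEB1, a choice made after their values were seen, the sums were 641 ± 12.5 and 449 ± 14.5 CPM.

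**Figure D4:**
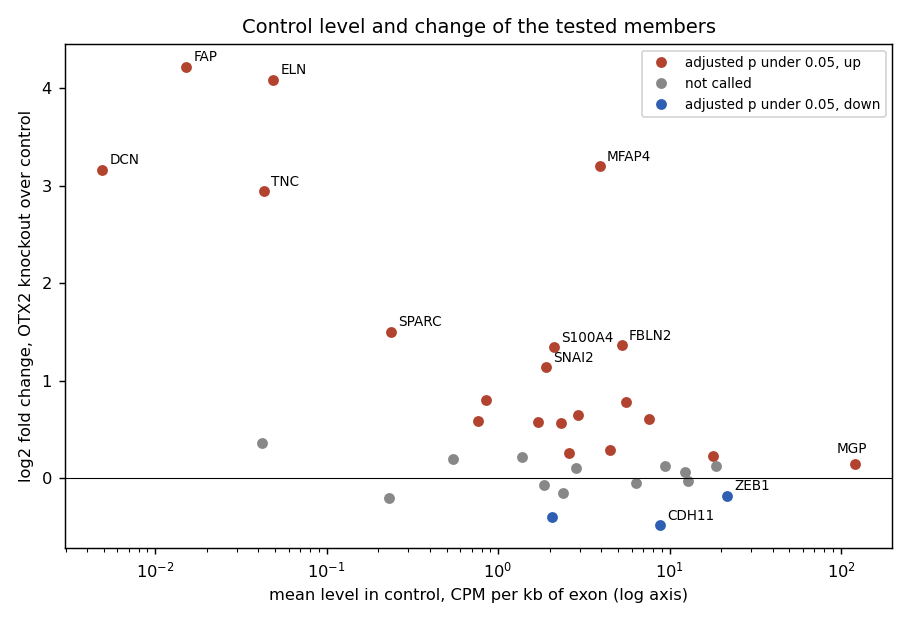
Mean control level per kb of exon (log axis) against the log2 fold change of OTX2 knockout over control for the tested members other than POSTN, which had 0 control counts. Members above 10 CPM per kb in control lie within -0.18 and 0.23, and the points above 2 are FAP, ELN, DCN, TNC and MFAP4.

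Related gene lists, also chosen with earlier results of these data known, were counted in the same fit. The background for each list is 21.2% up and 18.5% down of all tested genes. Of 34 other matrix glycoproteins tested out of 40 listed, 20 rose and 4 fell (median log2 fold change 0.49); 1 of the rises, EFEMP1, was tested only through OTX2 knockout. WISP2, a CCN family member, rose 8.22-fold, SPOCK2, a testican, 3.74-fold, and SPARCL1, a relative of SPARC, 1.98-fold, while MFAP3L fell 1.52-fold. Of 30 other proteases, inhibitors and crosslinkers tested out of 39, 17 rose and 3 fell (median 0.49); 2 of the rises, MMP10 and ADAMTS2, named like EFEMP1 after their values were seen, were tested only through OTX2 knockout. TLL1, a tolloid protease that processes matrix precursors, rose 8.51-fold, the membrane protease MMP16 rose 4.26-fold and BMP1, another tolloid protease, 1.95-fold, whereas the inhibitor TIMP3 fell 1.76-fold. LOXL4, chosen after its values were seen, averaged 110.4 ± 15.95 CPM in OTX2 knockout and 53.5 ± 3.43 CPM in control (SD, n = 3 each), with a log2 fold change of 1.04.

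Proteoglycan and hyaluronan genes outside the module went both ways, 6 up and 6 down of 18 tested (median 0.16). PRELP, a leucine-rich proteoglycan, rose 8.63-fold, while the syndecan SDC2 fell to 945 ± 32.8 CPM, against 1346 ± 21.9 CPM in control (SD, n = 3 each), the brain proteoglycan CSPG5 fell 1.49-fold and the glypican GPC5 1.76-fold. In TGF-beta signalling, 8 of 19 tested rose and 5 fell (median 0.04), and 3 fell without OTX2 knockout replicate 1 or control replicate 2, and 2 with library totals. The ligand TGFB3 rose to 16.8 ± 0.290 CPM, against 3.68 ± 0.289 CPM in control (SD, n = 3 each), the inhibitory SMAD7 rose 3.03-fold, LTBP3, which binds latent TGF-beta and sits on microfibrils, 1.35-fold, and the signal transducer SMAD3 fell 1.46-fold. In the Hippo-YAP list, 7 of 22 tested rose and 4 fell (median 0.0072). These shares of 31.8% and 18.2% stand beside 21.2% and 18.5% of all tested genes. The coactivator WWTR1 rose 1.49-fold, VGLL4 rose 1.28-fold with exons that overlap ATG7, and the DNA-binding partner TEAD4 fell 1.39-fold. The target gene ANKRD1 rose 5.66-fold, at 0.678 and 0.120 CPM in OTX2 knockout and control, and had 1 control library over the filter level.

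Epithelial junction genes, the usual counterpart of a mesenchymal programme, were split, with 5 up and 5 down of 16 tested (median -0.06), or 3 down with library totals. DSP, desmoplakin, fell to 354 ± 29.1 CPM, against 516 ± 15.5 CPM in control (SD, n = 3 each), while TJP3 rose 4.03-fold, MAL2 2.10-fold and JUP, plakoglobin, 1.20-fold. CDH1, E-cadherin, had 10 and 1 counts in OTX2 knockout and control and was not tested. Of 12 other mesenchymal factors and markers tested out of 20, 4 rose and 1 fell (median 0.04). Their shares were 33.3% up and 8.33% down, against 21.2% and 18.5% of all tested genes. FOXC1, a forkhead factor of meninges and head mesenchyme, averaged 1.46 and 0.136 CPM in OTX2 knockout and control, 10.7-fold higher, and TCF12 rose 1.16-fold. PRRX1, at 0.483 and 0.149 CPM, was tested only through OTX2 knockout and had to differ, and FOXC1 had 1 control library over the filter level. The one that fell was VIM, vimentin, named after its value was seen, at 748 ± 13.6 and 821 ± 40.5 CPM in OTX2 knockout and control (SD, n = 3 each), and its call was lost without OTX2 knockout replicate 1 or 2, or control replicate 2 or 3, and with library totals. Of the PDGF ligands, PDGFC fell 1.42-fold and PDGFD rose 1.89-fold. PDGFRL, a receptor-like gene in the same list, rose 2.07-fold, a call lost without OTX2 knockout replicate 1 or 2, without control replicate 2, and with DESeq2.

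**Figure D5:**
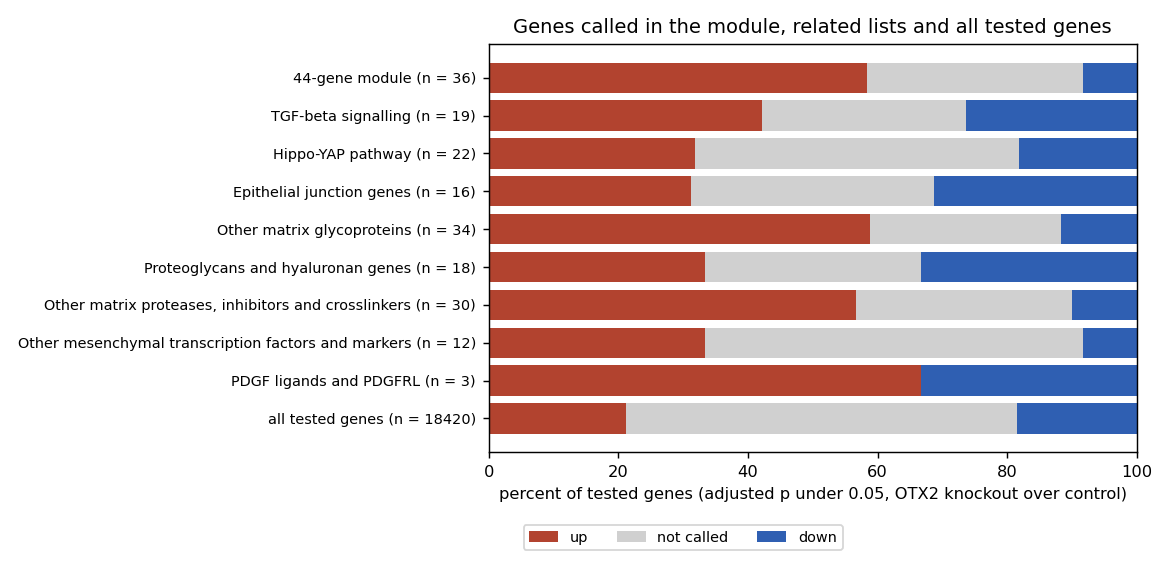
Share of tested genes called up, not called and called down for the module, the related lists and all tested genes, as a percentage on the horizontal axis, with the number tested in parentheses. Of all tested genes 21.2% were called up and 18.5% down, and of the tested members 21 of 36 were called up. Members and lists were chosen with earlier results of these data known.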

How the data were processed

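RNA libraries of D283 cells were analysed from 1 table of whole-number counts per gene symbol, which the authors deposited with 1 column per library and without normalization. Per the submitters' processing notes, STAR and hg38 were used. Counting program, annotation, strand setting and filters: not given in the sources used here. Columns were assigned by title, and groups by the genotype label.

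Counts were tested with edgeR 4.0.16 in R 4.3.3 (filterByExpr at default settings, TMM scaling, quasi-likelihood F test), with Benjamini-Hochberg adjustment over all 18420 tested genes and a threshold of 0.05. The fit had 4 residual degrees of freedom. CPM are counts scaled to a common TMM-adjusted library size. Each SE is the absolute log2 fold change divided by the square root of the F statistic of the fit. Intervals at 95% for fold changes are built on that SE. Intervals for ratios of low counts are exact binomial, and cover counting error alone, since reads lack molecular identifiers. Exon lengths and positions came from GENCODE release 29 on GRCh38, by symbol, for all 44 members and 81.1% of tested genes. Promoter sequences came from RefSeq on GRCh38 patch 14. The scripts were tested on simulated counts.

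The members and gene lists were chosen with earlier results of these data known. Values in every library are given for members called at 2-fold or more, for members at 0 counts in 1 group, and for the 2 members with the highest mean CPM of each role. From each related list, up to 4 genes with the smallest adjusted p are named. Some genes that this rule takes are not reported here. Alternatives were other scalings (RLE, upper quartile, library totals), other filters, each library left out, DESeq2 1.42.0, limma-voom (limma 3.58.1), removal of mitochondrial and rRNA genes, a threshold of 0.01 and glmTreat against a 1.5-fold change. A filter at a mean count of 100 was added after the data were seen.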

Additional observations from a re-analysis of the deposited data

How the results depend on the processing

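Of 21 members called up, 19 passed under every alternative that tested them with a threshold of 0.05 against no change. The exceptions were TWIST1 and MGP. The number of members called up was 24 with library totals alone, 19 at a threshold of 0.01, and 19 to 23 with 1 library left out. Against a 1.5-fold change, glmTreat called 12 members up and 0 down (13 and 0 at an unadjusted p under 0.05, where DESeq2 against no change called 3 down), and 1050 of all genes up and 157 down, a stricter question by construction. The number called down, 3, was 1 with upper-quartile factors, with library totals alone, with at least 1 CPM in at least 3 libraries, at a threshold of 0.01 and at a mean count of at least 100, and 1 to 4 with 1 library left out, CDH11 remaining in each. Of all genes, 2034 were called down with library totals alone. For these counts the cause was not tested. Signs of uncalled members reversed with library totals alone for SNAI1 (log2 fold change 0.026), PDGFRB (0.0037) and CDH2 (0.050), and without control replicate 1 for CDH2 (0.0027) and EMILIN1 (0.015), with ranges over libraries left out of -0.073 to 0.0027 and -0.35 to 0.015. The fold of the summed CPM of the module over control was 1.20 to 1.25 with 1 library left out and 1.295 with library totals alone. No paired analysis was possible because the labels give the groups no shared replicate numbers. The 8 untested members were under the filter on counts, so a difference in them could not be tested.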

Other observations

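Within the controls, replicate 1 held the highest level of some members that were not firmly called and the lowest of others. The members below are examples, and how often each control was the highest or lowest was not counted. CYR61 had 6.08 CPM there, against 4.47 and 3.64 CPM in control replicates 2 and 3, and CTGF had 3.86 CPM, against 2.86 and 2.96 CPM. LOX stood at 17.6 CPM in control replicate 1, against 13.7 and 13.0 CPM, and EMILIN1 at 1.17 CPM, against 0.728 and 0.844 CPM. It was the lowest control for MGP (170.2 CPM, against 182 and 182), MMP14 (33.4 CPM, against 35.1 and 36.9), PDGFRA (4.03 CPM, against 4.57 and 4.20) and VCAN (0.506 CPM, against 0.576 and 0.581). The share of mitochondrial ribosomal RNA was 0.0941% to 0.111% in OTX2 knockout, 0.304% in control replicate 1, and 0.0971% and 0.0675% in control replicates 2 and 3.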
